A study of Homo sapiens with 4 samples.

Results

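Voltage-gated sodium, potassium and calcium channel genes were followed in A673 cells, a line from an Ewing sarcoma, after siRNA silencing of SMPD1 or GPR64. SMPD1 encodes acid sphingomyelinase, and GPR64 encodes an adhesion G protein-coupled receptor. Members were the gene rows whose symbol begins with KCN, CACNA, CACNB or CACNG, or is SCN with a number and A or B. Antisense and overlapping transcripts were left out. Of 23228 gene rows, 137 met this rule. Of these, 51 had a mean of at least 1 CPM (counts scaled with TMM factors to a library of 1000000 gene counts) over the 4 libraries and are described here. The symbol rule also takes in inward rectifier, two-pore and calcium-activated potassium channels, auxiliary subunits and 1 non-channel transcript, KCNQ1DN, so the set is wider than voltage-gated pores.

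The 4 groups held 1 library each, all from A673 cells harvested 48 h after transfection with a lipid reagent. They were siSMPD1 (SMPD1 siRNA), control_SMPD1 (scrambled siRNA, the library that its title pairs with siSMPD1), siGPR64 (GPR64 siRNA) and control_GPR64 (scrambled siRNA, titled as the GPR64 control). Total RNA depleted of ribosomal RNA was sequenced. How many siRNAs were used, and their sequences, was not stated in the labels. Every value therefore comes from a single cell line and a single culture per condition, no difference has a replicate check, and no test within a pair was possible.

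Sodium and calcium channel pores are single large proteins with repeated domains, while most potassium channels assemble from separate alpha subunits around a shared pore. Their voltage sensors open the pore on depolarization. Sodium influx starts the action potential, potassium efflux ends it, and calcium influx links voltage to secretion, contraction and transcription. Auxiliary subunits set how much channel reaches the surface and how fast it gates. Ewing sarcoma cells carry the EWS-FLI1 fusion and show some neural gene expression, and transcripts of channels are commonly found in tumour cells that fire no action potentials.

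Gene counts summed to 18849264 in siSMPD1 and 19614913 in control_SMPD1, but to 2534861 in siGPR64 and 2882854 in control_GPR64. A count of 0 allowed up to 0.159, 0.156, 1.18 and 1.03 CPM in the same order (3 counts, counting error only). Both targets were lower in their own knockdown than in the paired control. SMPD1 had 91.7 CPM in siSMPD1 and 414 CPM in control_SMPD1, and GPR64 had 50.1 CPM in siGPR64 and 108.6 CPM in control_GPR64. SMPD1 also differed in the pair in which it was not targeted, with 232 CPM in siGPR64 and 52.8 CPM in control_GPR64, so control_GPR64 held less SMPD1 than siSMPD1 did. GPR64 had 539 CPM in siSMPD1 and 388 CPM in control_SMPD1. The tissue label muscle was not borne out by muscle markers. Of 12 such genes 6 had 0 counts in all 4 libraries, MYOD1 and MYOG among them, and the 12 summed to 1.91, 2.65, 1.96 and 2.06 CPM. Of 11 Ewing sarcoma markers 10 were measured and CD99 was listed at 0 in all 4 libraries. Immune, epithelial and endothelial lists had 1 of 7, 2 of 7 and 1 of 5 genes measured.

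The measured channel genes together held 986 CPM in siSMPD1 and 1010 CPM in control_SMPD1, and 1146 CPM in siGPR64 and 837 CPM in control_GPR64. In bulk RNA, fewer expressing cells and less RNA per cell cannot be told apart. Of the other 86 rows, 35 had 0 counts in all 4 libraries and 7 reached 1 CPM in at least 1 library. KCNMA1 at 1.05 CPM and KCNF1 at 1.09 CPM lay just inside the threshold, and CACNG5 at 0.966 CPM and KCNRG at 0.938 CPM just outside. None of the 15 two-pore (KCNK) genes, which carry background potassium leak, reached a mean of 1 CPM. In control_GPR64, 25 of the 51 members rested on 10 counts or fewer and 3 had no count, against 3 and 0 members in control_SMPD1. Of the 51, 24 share annotated exon bases with another gene, and without a stated strand setting such reads cannot be assigned with certainty.

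**Figure D1:**
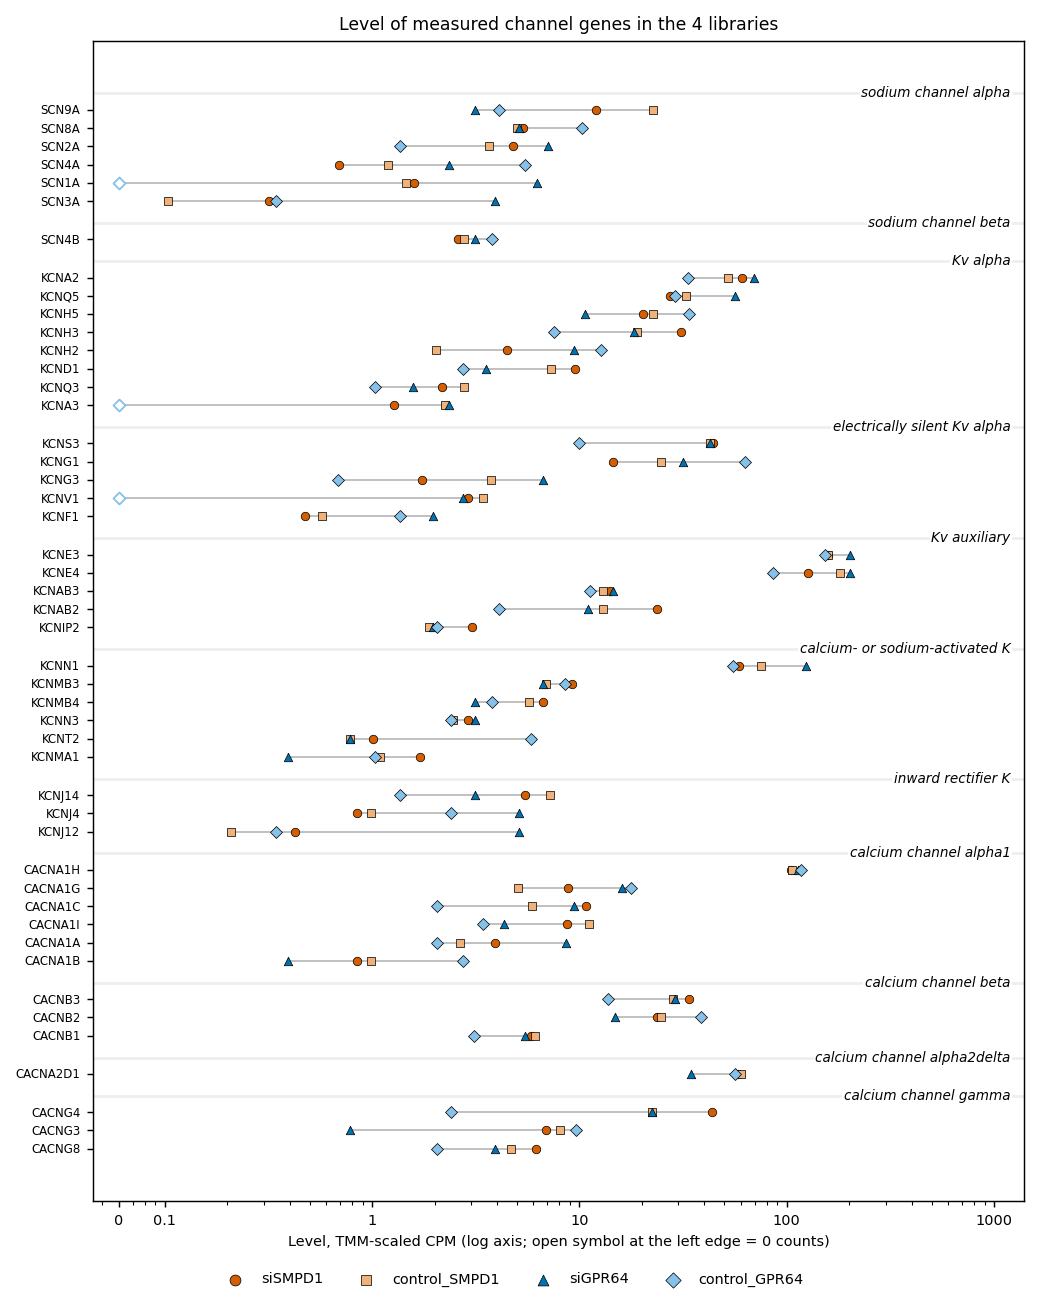
Level of 47 of the 51 measured channel genes (rows, by role) on a log axis of TMM-scaled CPM, 1 symbol per library. Open symbols at the left edge are the 3 members with 0 counts in control_GPR64 (SCN1A, KCNA3 and KCNV1), and control_GPR64 is the lowest library for 24 of the 51.

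To compare genes with each other, levels were divided by annotated exon length. On this scale the highest members were small auxiliary subunits. KCNE3, a single-span partner of potassium channel alpha subunits, had 46.4 CPM per kb in siSMPD1 against 46.6 in control_SMPD1, and 59.0 in siGPR64 against 44.8 in control_GPR64. KCNE4, a related subunit that inhibits several Kv channels, had 38.5 CPM per kb in siSMPD1 against 54.9 in control_SMPD1, and 61.7 in siGPR64 against 26.0 in control_GPR64. They held the top ranks in every library but control_GPR64, where KCNG1 stood between them, and siGPR64 was the highest library for both genes. Antisense genes overlap 17.9% of the exon bases of KCNE3 and 19.6% of those of KCNG1.

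Next came KCNN1, the pore of a small-conductance calcium-activated potassium channel, at a mean of 21.5 CPM per kb. KCNG1 and KCNS3, electrically silent alpha subunits that open no pore alone and modify other Kv channels, had means of 15.1 and 13.7 CPM per kb. CACNA1H, the pore of a T-type calcium channel that opens at low voltage, followed at 13.4 CPM per kb. The 4-library ranges of KCNG1, KCNS3 and CACNA1H overlapped, so their order is not set by these data. Pore genes of sodium channels were far lower, led by SCN9A at 1.02 CPM per kb.

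KCNQ1, the best-known partner of KCNE3, was listed at 0 counts in all 4 libraries, which allows up to 0.156 CPM in control_SMPD1, the deepest library. KCNB2, a pore that silent subunits can join, had 0.212 CPM in siSMPD1 against 0.208 in control_SMPD1, and 0.392 in siGPR64 against 0.343 in control_GPR64 (4, 4, 1 and 1 counts). The silent subunits KCNS3 and KCNG1 averaged 34.8 and 33.5 CPM. CD99, a defining Ewing sarcoma marker, was likewise listed at 0, so a 0 in these files need not mean that a gene was silent.

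**Figure D2:**
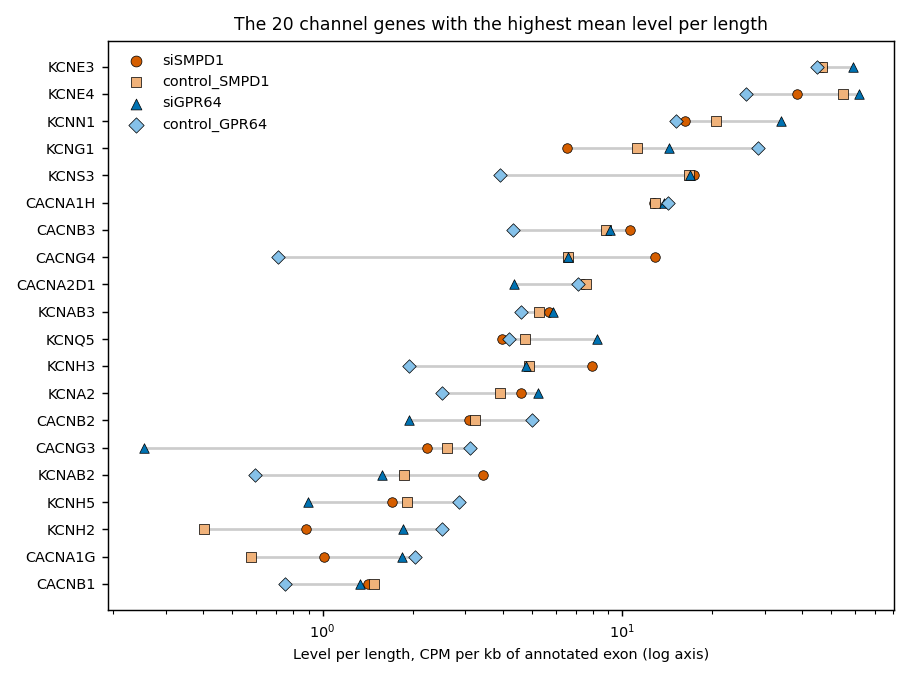
The 20 channel genes with the highest mean level per length, in CPM per kb of annotated exon on a log axis, 1 symbol per library. KCNE3 and KCNE4 lead in every library but control_GPR64, where KCNG1 comes between them, CACNA1H is nearly level across them, and CACNG4 and CACNG3 spread furthest, each through 1 low library.

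A fixed rule of size served in place of a test. A gene passed it in a pair of libraries if the pair averaged at least 1 CPM, the TMM-scaled ratio was at least 2-fold, and the exact 95% Clopper-Pearson counting interval of the ratio excluded 1. No molecular identifiers are stated, so reads may not be independent molecules. The interval covers counting error only, with no part for differences between cultures.

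The first comparison asked what silencing SMPD1 did. Channel transcripts were mostly level between siSMPD1 and control_SMPD1. KCNH2 was among 2 higher members and KCNG3 was the single lower one, so 3 of the 43 members measured in this pair passed the rule, against 3.32% of all 12604 measured genes (2.27% higher and 1.06% lower). They were 3 of 25 members that averaged 1 to 10 CPM, a range in which 9.93% of genes passed, and none of 18 members at 10 CPM or more did. The median log2 ratio of the 51 members was 0.10, and that of all genes was -0.00.

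KCNH2, the hERG channel that carries the rapid delayed rectifier current of heart muscle, had 4.45 CPM in siSMPD1 against 2.03 in control_SMPD1, and 9.40 in siGPR64 against 12.7 in control_GPR64 (84, 39, 24 and 37 counts). It was 2.18-fold higher (95% counting interval 1.48 to 3.29) in siSMPD1 than in its paired control, yet 2.83-fold lower (1.88 to 4.24) than in control_GPR64. KCNG3, a silent subunit, had 1.75 CPM in siSMPD1 against 3.75 in control_SMPD1, and 6.66 in siGPR64 against 0.685 in control_GPR64 (33, 72, 17 and 2 counts). It was 2.13-fold lower (1.40 to 3.34) in siSMPD1 than in control_SMPD1. Its log2 ratio against control_GPR64 was 1.30, on 2 counts in that library, and the counting interval included 1. The direction of KCNH2 thus depended on which control library was used. The KCNG3 ratio changed sign, but its direction against control_GPR64 is not set by these counts. Against control_GPR64 alone, 14 members were higher and 7 lower in siSMPD1 (21 of 46, background 18.4%, with 10.6% higher and 7.83% lower). Against both controls in the same direction, 1 of 41 members was higher and none was lower, where 0.942% of all genes were higher and 0.606% lower.

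SCN4B, a sodium channel beta subunit that tunes gating of the pore, had 2.60 CPM in siSMPD1 against 2.76 in control_SMPD1, and 3.13 in siGPR64 against 3.77 in control_GPR64, with no pair past the rule.

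Further pore and partner genes came close to 2-fold in siSMPD1, with intervals that excluded 1. CACNG4, a transmembrane regulator of AMPA receptors in the calcium channel gamma family, was 1.94-fold higher (1.73 to 2.19), and KCNAB2, a cytoplasmic Kv beta subunit with an aldo-keto reductase fold, 1.83-fold higher (1.57 to 2.15). CACNA1C, the pore of the L-type channel of heart and smooth muscle, was 1.81-fold higher (1.43 to 2.30). SCN9A, the sodium channel of pain-sensing neurons, was 1.88-fold lower (1.60 to 2.22). Against control_GPR64, SCN9A was instead 2.91-fold higher (1.64 to 5.75), so its direction depended on the control. There CACNG4, KCNAB2 and CACNA1C were again higher and passed the rule. KCNG1 was lower in siSMPD1 against both controls. It was 1.71-fold lower (1.47 to 1.99) than in control_SMPD1, short of the rule, and 4.35-fold lower (3.59 to 5.27) than in control_GPR64. With the fold lowered to 1.5, 12 of 43 members passed, 8 higher and 4 lower, against 11.8% of all genes.

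The second comparison asked what silencing GPR64 did. In siGPR64, 17 channel genes were higher and 4 lower than in control_GPR64. They spanned sodium, potassium and calcium channel families. These 21 of 50 measured members stand against 11.7% of all 12669 measured genes (6.61% higher and 5.12% lower). The median log2 ratio was 0.46 over the members, also with counts of 0 set to 3, and 0.02 over all genes. The members' share exceeded that of all genes in both expression ranges. It was 11 of 32 members against 20% of genes with a mean of 1 to 10 CPM, and 10 of 18 against 9.3% at 10 CPM or more. Among the 11, SCN3A and KCNJ12 met the level filter through siGPR64 alone and KCNT2 through control_GPR64 alone. Their calls come from the values that admitted them, so the share at 1 to 10 CPM is given as a description.

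**Figure D3:**
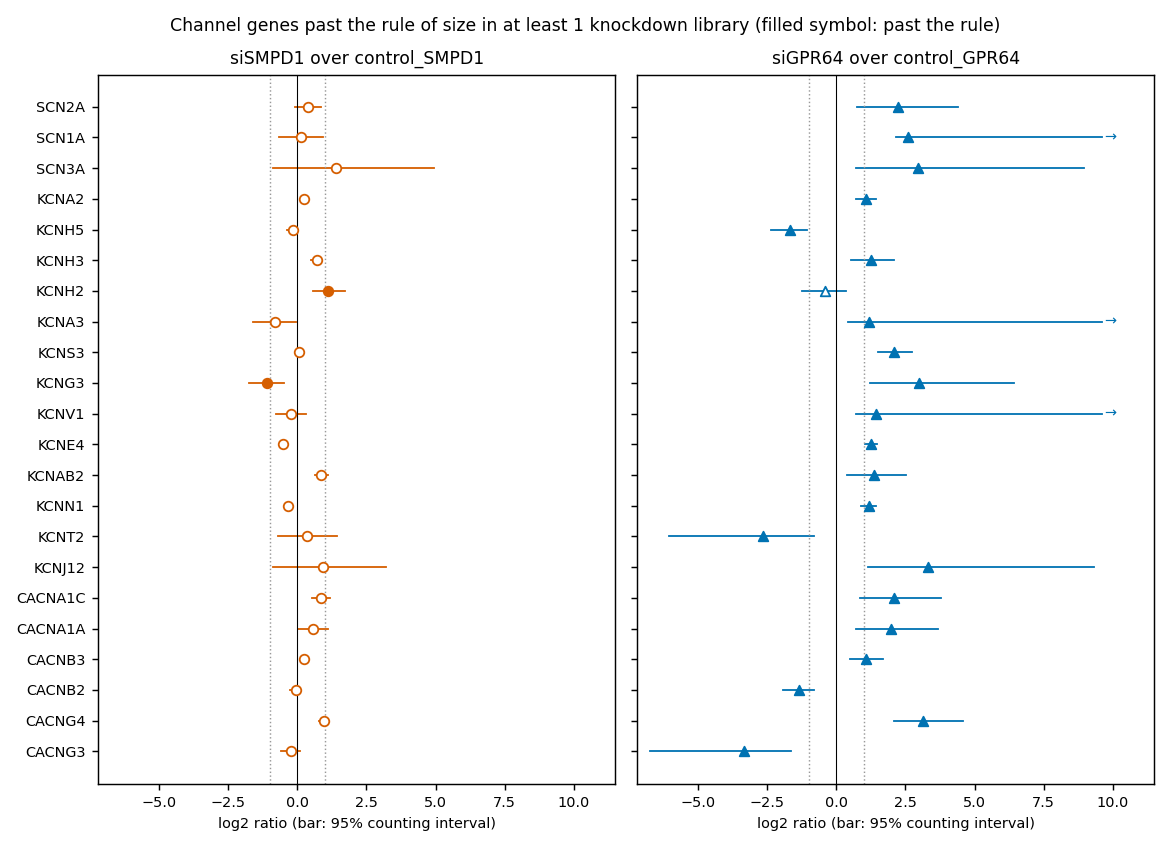
Log2 ratio with its 95% counting interval for 22 channel genes past the rule of size in siSMPD1 over control_SMPD1 (left) or siGPR64 over control_GPR64 (right). Filled symbols passed the rule, dotted lines mark 2-fold, and SCN1A, KCNA3 and KCNV1 on the right are drawn at the lower bound set by 0 counts in control_GPR64, with an open-ended interval. Most siGPR64 symbols lie right of 0, while only KCNH2 and KCNG3 on the left are filled.

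Among sodium channel pores, SCN1A, SCN2A and SCN3A were higher. SCN1A, the channel of inhibitory interneurons that is mutated in Dravet syndrome, had 1.59 CPM in siSMPD1 against 1.46 in control_SMPD1, and 6.27 in siGPR64 against 0 in control_GPR64 (30, 28, 16 and 0 counts). It was at least 6.10-fold higher in siGPR64 than in control_GPR64 with the 0 set to 3 counts, and the lower limit of its 95% counting interval was 4.41-fold. SCN2A, an axonal channel of excitatory neurons, had 4.77 CPM in siSMPD1 against 3.64 in control_SMPD1, and 7.05 in siGPR64 against 1.37 in control_GPR64 (90, 70, 18 and 4 counts), or 4.66-fold higher (1.70 to 20.9). SCN3A, a channel of the embryonic brain, had 0.318 CPM in siSMPD1 against 0.104 in control_SMPD1, and 3.92 in siGPR64 against 0.343 in control_GPR64 (6, 2, 10 and 1 counts), or 7.81-fold higher (1.63 to 496). In all of these genes siGPR64 was the highest of the 4 libraries, on 10 to 18 counts. SCN3A is a measured member through siGPR64 alone, since its other 3 libraries averaged 0.255 CPM.

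The other sodium channel pores did not pass the rule in siGPR64. SCN8A, found at nodes of Ranvier, had 5.35 CPM in siSMPD1 against 5.00 in control_SMPD1, and 5.09 in siGPR64 against 10.3 in control_GPR64 (101, 96, 13 and 30 counts). SCN9A had 12.0 CPM in siSMPD1 against 22.6 in control_SMPD1, and 3.13 in siGPR64 against 4.11 in control_GPR64 (227, 435, 8 and 12 counts), so both libraries of the GPR64 pair lay below both libraries of the SMPD1 pair. SCN4A, the skeletal muscle channel, had 0.689 CPM in siSMPD1 against 1.20 in control_SMPD1, and 2.35 in siGPR64 against 5.48 in control_GPR64 (13, 23, 6 and 16 counts), and was highest in control_GPR64.

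Of Kv alpha genes, 3 were higher and 1 lower. KCNA2, a delayed rectifier of axons, had 61.1 CPM in siSMPD1 against 51.8 in control_SMPD1, and 69.3 in siGPR64 against 33.2 in control_GPR64 (1153, 995, 177 and 97 counts), which is 2.08-fold higher (1.62 to 2.70) in siGPR64. KCNH3, a brain channel of the ether-a-go-go family, had 30.7 CPM in siSMPD1 against 18.9 in control_SMPD1, and 18.4 in siGPR64 against 7.54 in control_GPR64 (580, 363, 47 and 22 counts), or 2.41-fold higher (1.44 to 4.26). KCNA3, the delayed rectifier of T lymphocytes, had 1.27 CPM in siSMPD1 against 2.24 in control_SMPD1, and 2.35 in siGPR64 against 0 in control_GPR64 (24, 43, 6 and 0 counts), or at least 2.29-fold higher (lower limit 1.35-fold). For KCNH3 and KCNA3 the siGPR64 level was close to that of control_SMPD1, and control_GPR64 was the low library. KCNH5, another ether-a-go-go channel, was the lower one, with 20.2 CPM in siSMPD1 against 22.6 in control_SMPD1, and 10.6 in siGPR64 against 33.9 in control_GPR64 (381, 435, 27 and 99 counts). This is 3.17-fold lower (2.08 to 5.11), with siGPR64 the lowest and control_GPR64 the highest of the 4.

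KCNQ5, a pore of the neuronal M-current, fell short of the rule at 1.95-fold higher (1.49 to 2.60), with 27.2 CPM in siSMPD1 against 32.5 in control_SMPD1, and 56.4 in siGPR64 against 28.8 in control_GPR64. KCNQ3, of the same family, had 2.17 CPM in siSMPD1 against 2.76 in control_SMPD1, and 1.57 in siGPR64 against 1.03 in control_GPR64 and passed in neither knockdown pair. Nor did KCND1, the pore of an A-type current.

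Of silent Kv subunits, 3 of 5 were higher and none was lower. KCNS3 had 44.0 CPM in siSMPD1 against 42.5 in control_SMPD1, and 42.7 in siGPR64 against 9.93 in control_GPR64 (831, 817, 109 and 29 counts), which is 4.24-fold higher (2.83 to 6.72) in siGPR64 than in control_GPR64. The first 3 of these levels lie close together, and control_GPR64 alone is low. KCNG3 was 7.88-fold higher (2.31 to 86.7), on 2 counts in control_GPR64, and KCNV1 was at least 2.67-fold higher (lower limit 1.65-fold). KCNV1 had 2.91 CPM in siSMPD1 against 3.44 in control_SMPD1, and 2.74 in siGPR64 against 0 in control_GPR64 (55, 66, 7 and 0 counts). KCNG1 had the opposite pattern, with 14.5 CPM in siSMPD1 against 24.7 in control_SMPD1, and 31.7 in siGPR64 against 63.0 in control_GPR64 (273, 475, 81 and 184 counts). It was 1.98-fold lower (1.52 to 2.61) in siGPR64, short of the rule. KCNF1 had at most 1.96 CPM in any library.

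Auxiliary Kv subunits included 2 higher members. KCNE4 had 127 CPM in siSMPD1 against 181 in control_SMPD1, and 203 in siGPR64 against 85.6 in control_GPR64 (2389, 3469, 518 and 250 counts), or 2.37-fold higher (2.03 to 2.77) in siGPR64. KCNAB2 had 23.7 CPM in siSMPD1 against 13.0 in control_SMPD1, and 11.0 in siGPR64 against 4.11 in control_GPR64 (448, 249, 28 and 12 counts), or 2.60-fold higher (1.31 to 5.76). KCNE3, with the highest 4-library mean of all members, had 158 CPM in siSMPD1 against 159 in control_SMPD1, and 201 in siGPR64 against 153 in control_GPR64 (2986, 3049, 513 and 446 counts), or 1.32-fold higher (1.16 to 1.5) in siGPR64. KCNAB3 and KCNIP2, further cytoplasmic partners of Kv channels, did not pass the rule.

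Calcium- and sodium-activated potassium channels gave 1 call in each direction. KCNN1 had 59.1 CPM in siSMPD1 against 75 in control_SMPD1, and 124 in siGPR64 against 55.2 in control_GPR64 (1115, 1441, 316 and 161 counts), or 2.24-fold higher (1.85 to 2.73) in siGPR64. KCNT2, a sodium-activated channel, had 1.01 CPM in siSMPD1 against 0.781 in control_SMPD1, and 0.783 in siGPR64 against 5.82 in control_GPR64 (19, 15, 2 and 17 counts), or 6.22-fold lower (1.76 to 66.3). KCNT2 stood near 1 CPM in 3 libraries and was high in control_GPR64 alone. KCNMA1, the pore of the large-conductance BK channel, its beta subunit genes KCNMB3 and KCNMB4, and KCNN3 did not pass. Of the annotated exon bases of KCNMB3, 41.0% overlap exons of PIK3CA on the other strand, so its counts are uncertain without a stated strand setting.

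Inward rectifiers, which hold the resting potential, had 1 higher member. KCNJ12 had 0.424 CPM in siSMPD1 against 0.208 in control_SMPD1, and 5.09 in siGPR64 against 0.343 in control_GPR64 (8, 4, 13 and 1 counts), or 10.0-fold higher (2.23 to 632) in siGPR64. It is nearly identical to KCNJ18, which was listed at 0 in all 4 libraries, so the KCNJ12 level is uncertain. KCNJ12 too is a measured member through siGPR64 alone, with an average of 0.325 CPM in the other 3 libraries. KCNJ4 had 0.848 CPM in siSMPD1 against 0.989 in control_SMPD1, and 5.09 in siGPR64 against 2.40 in control_GPR64 (16, 19, 13 and 7 counts), and KCNJ14 had 5.46 CPM in siSMPD1 against 7.23 in control_SMPD1, and 3.13 in siGPR64 against 1.37 in control_GPR64 (103, 139, 8 and 4 counts).

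Calcium channel pores had 2 higher members. CACNA1C had 10.8 CPM in siSMPD1 against 5.93 in control_SMPD1, and 9.40 in siGPR64 against 2.06 in control_GPR64 (203, 114, 24 and 6 counts), or 4.28-fold higher (1.82 to 13.7) in siGPR64. CACNA1A, the P/Q-type pore of presynaptic terminals, had 3.92 CPM in siSMPD1 against 2.65 in control_SMPD1, and 8.62 in siGPR64 against 2.06 in control_GPR64 (74, 51, 22 and 6 counts), or 3.93-fold higher (1.65 to 12.6). For CACNA1C the other 3 libraries all lay above control_GPR64, while for CACNA1A siGPR64 stood above the rest. CACNA1H, the calcium channel pore with the highest mean level, was level, with 105 CPM in siSMPD1 against 106 in control_SMPD1, and 113 in siGPR64 against 116 in control_GPR64 (1984, 2029, 289 and 340 counts). The other T-type pores CACNA1G and CACNA1I and the N-type pore CACNA1B did not pass.

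Calcium channel auxiliary genes gave calls in both directions. CACNB3, a cytoplasmic beta subunit that brings pores to the surface, had 33.6 CPM in siSMPD1 against 28.1 in control_SMPD1, and 29 in siGPR64 against 13.7 in control_GPR64 (635, 540, 74 and 40 counts), or 2.10-fold higher (1.42 to 3.19) in siGPR64. CACNB2, its paralog and the main beta subunit of the heart, had 23.7 CPM in siSMPD1 against 24.7 in control_SMPD1, and 14.9 in siGPR64 against 38.4 in control_GPR64 (447, 475, 38 and 112 counts), or 2.56-fold lower (1.77 to 3.83). The 2 paralogs thus had opposite ratios in this pair. CACNB1 had 5.83 CPM in siSMPD1 against 6.09 in control_SMPD1, and 5.48 in siGPR64 against 3.08 in control_GPR64.

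CACNG4 had 43.4 CPM in siSMPD1 against 22.3 in control_SMPD1, and 22.3 in siGPR64 against 2.40 in control_GPR64 (819, 429, 57 and 7 counts), or 8.72-fold higher (4.24 to 24.2) in siGPR64 than in control_GPR64. CACNG3, a related AMPA receptor regulator, had 6.89 CPM in siSMPD1 against 8.07 in control_SMPD1, and 0.783 in siGPR64 against 9.59 in control_GPR64 (130, 155, 2 and 28 counts), or 10.1-fold lower (3.09 to 106). CACNG4 was low in control_GPR64 and level between siGPR64 and control_SMPD1, whereas CACNG3 was low in siGPR64 alone. CACNA2D1, the extracellular subunit bound by gabapentin, had 58.4 CPM in siSMPD1 against 60.0 in control_SMPD1, and 34.5 in siGPR64 against 56.5 in control_GPR64 (1102, 1153, 88 and 165 counts). At 1.64-fold lower (1.26 to 2.15) it did not pass. CACNG8 did not pass either.

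Set against control_SMPD1 instead, 10 members were higher and 6 lower in siGPR64 (16 of 47, background 11.3%, with 6.03% higher and 5.29% lower). Of the 21 members past the rule against control_GPR64, 6 passed it in the same direction against control_SMPD1. These were SCN1A, SCN3A, CACNA1A and KCNJ12, all higher, and CACNG3 and KCNH5, both lower. Of these, SCN3A and KCNJ12 met the level filter through siGPR64 alone, so their higher calls there come from the value that admitted them and are given as a description. Over all genes, 1.49% were higher and 1.41% lower against both controls. The 2 comparisons share the siGPR64 library, so they are not independent.

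**Figure D4:**
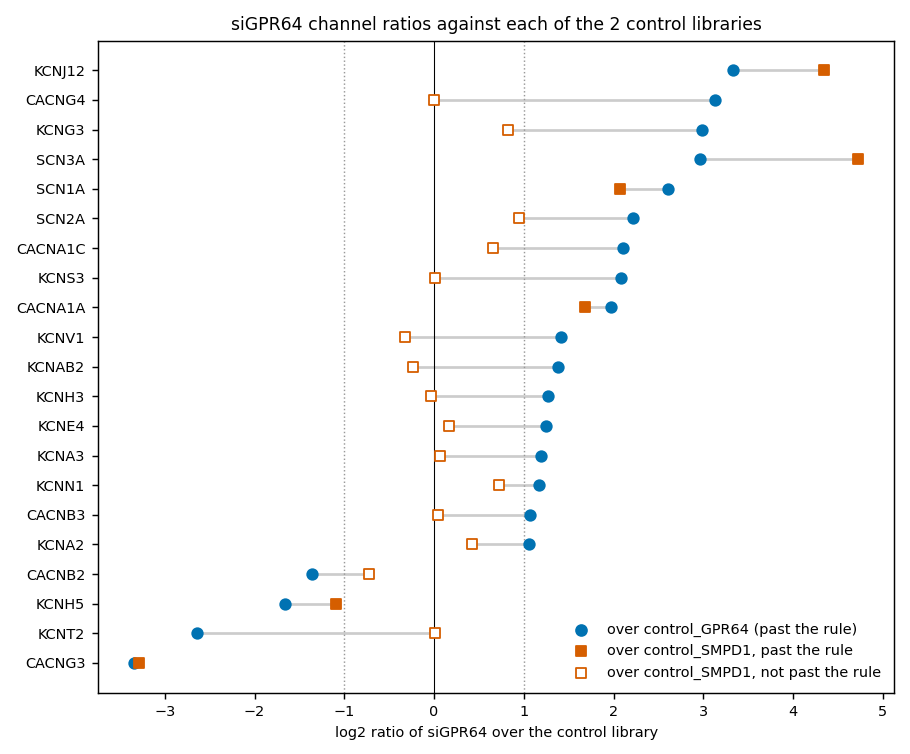
Log2 ratio of siGPR64 over control_GPR64 (circles) and over control_SMPD1 (squares, filled where the rule was passed) for the 21 channel genes past the rule against control_GPR64. SCN1A over control_GPR64, like KCNA3 and KCNV1, is drawn at its lower bound. The 6 filled squares are SCN3A, KCNJ12, SCN1A, CACNA1A, KCNH5 and CACNG3, and the open squares lie between the dotted 2-fold lines.

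Against control_SMPD1, SCN1A was 4.20-fold higher (2.17 to 8.23) and SCN3A 26.4-fold higher (8.02 to 353), the SCN3A ratio on 2 counts in control_SMPD1. CACNA1A was 3.21-fold higher (1.87 to 5.45) and KCNJ12 20.2-fold higher (7.56 to 103). CACNG3 was 9.78-fold lower (2.80 to 85.8) on 2 counts in siGPR64, and KCNH5 2.14-fold lower (1.45 to 3.29). Thus siGPR64 was the extreme library of the 4 for each of these genes. By contrast, CACNG4, KCNS3, KCNH3, CACNB3, KCNA3 and KCNT2 had log2 ratios between -0.04 and 0.07 against control_SMPD1. For them control_GPR64 was the lowest library, or for KCNT2 the highest. The KCNA3 ratio rested on 6 counts in siGPR64 (0.365 to 2.48-fold). KCNT2 rested on 2 counts in siGPR64, at 0.783 CPM against 0.781 in control_SMPD1. For CACNG4 and KCNH3, siSMPD1 also lay above control_SMPD1, at 43.4 against 22.3 CPM and 30.7 against 18.9 CPM.

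Other members passed the rule against control_SMPD1 alone. KCNH2 was 4.55-fold higher (2.66 to 7.90), KCNJ4 4.97-fold higher (2.34 to 11.0) and CACNA1G 3.16-fold higher (2.15 to 4.63) in siGPR64 than in control_SMPD1. SCN9A was 7.13-fold lower (3.63 to 16.8), KCND1 2.05-fold lower (1.06 to 4.61), KCNJ14 2.29-fold lower (1.14 to 5.45) and CACNA1I 2.57-fold lower (1.42 to 5.26). For each of these genes both libraries of the GPR64 pair lay on the same side of both libraries of the SMPD1 pair.

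Promoters are shown for the members past the rule in a knockdown against both controls. RefSeq (GRCh38.p14) sequences of 300 bases, 250 before and 50 after the annotated start, were at hand for 4 of these 7 members and for 33 of the 51. Each is written on the strand of its gene, and capitals mark GGAA on either strand (TTCC on the strand shown), the core bound by ETS factors such as EWS-FLI1.
SCN1A (chr2:166127971-166128270, minus strand), higher in siGPR64: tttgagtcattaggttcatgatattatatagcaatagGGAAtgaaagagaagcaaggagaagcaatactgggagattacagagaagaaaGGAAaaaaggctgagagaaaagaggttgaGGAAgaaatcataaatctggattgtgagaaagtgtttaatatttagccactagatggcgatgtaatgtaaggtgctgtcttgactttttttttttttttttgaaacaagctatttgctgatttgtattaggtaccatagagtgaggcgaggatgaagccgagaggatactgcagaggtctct
CACNA1A (chr19:13506430-13506729, minus strand), higher in siGPR64: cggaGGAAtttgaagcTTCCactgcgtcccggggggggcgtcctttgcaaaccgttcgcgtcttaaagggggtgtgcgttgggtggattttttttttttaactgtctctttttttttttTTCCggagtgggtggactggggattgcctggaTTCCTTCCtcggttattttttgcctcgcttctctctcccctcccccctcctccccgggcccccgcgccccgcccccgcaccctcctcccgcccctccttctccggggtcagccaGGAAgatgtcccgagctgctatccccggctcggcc
CACNG3 (chr16:24256085-24256384, plus strand), lower in siGPR64: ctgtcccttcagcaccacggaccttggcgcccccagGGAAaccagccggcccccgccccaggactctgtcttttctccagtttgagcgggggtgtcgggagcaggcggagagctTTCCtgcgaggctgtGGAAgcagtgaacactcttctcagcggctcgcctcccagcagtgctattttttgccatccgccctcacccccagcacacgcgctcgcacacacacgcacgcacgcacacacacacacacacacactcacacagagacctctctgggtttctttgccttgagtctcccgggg
KCNH5 (chr14:63045409-63045708, minus strand), lower in siGPR64: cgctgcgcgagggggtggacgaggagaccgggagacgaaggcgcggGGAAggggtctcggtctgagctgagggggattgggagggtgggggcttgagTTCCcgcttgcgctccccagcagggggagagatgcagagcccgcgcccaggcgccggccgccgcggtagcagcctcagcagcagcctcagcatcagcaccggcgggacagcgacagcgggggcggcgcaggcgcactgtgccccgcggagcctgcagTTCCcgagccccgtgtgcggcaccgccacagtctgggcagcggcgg

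The SCN1A window is rich in A and T, with 37% G and C, against 60.7% in CACNA1A, 62.7% in CACNG3 and 74.3% in KCNH5. The median was 65.7% over the 33 member promoters and 65.3% over 9006 promoters of measured genes. GGAA on either strand occurred in 29 of the 33 (87.9%), in 95.2% of the promoters of measured genes and in 95.5% of all 27305 promoters. It occurred 3 times in SCN1A, CACNG3 and KCNH5 and 6 times in CACNA1A, and its median number was 3 in members and in all promoters. The tandem GGAAGGAA occurred in 1 member promoter (3.03%), in 3.36% of the promoters of measured genes and in 3.58% of all promoters. TGACGTCA, the site of CREB, occurred in 1 member promoter (3.03%), in 3.38% of the promoters of measured genes and in 1.98% of all promoters. TATAAA occurred in 2 member promoters (6.06%), in 5.32% of the promoters of measured genes and in 12% of all promoters. A match describes letters in this window and is no evidence of binding.

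The 2 scrambled controls were then set against each other, since both received the same labelled treatment. Between control_GPR64 and control_SMPD1, 8 members were higher and 15 lower, or 23 of 46 against 15.2% of all 12686 measured genes (6.81% higher and 8.39% lower). The count is as large as that between siGPR64 and its own control, 21 of 50. The share was 14 of 28 members against 31.2% of genes at 1 to 10 CPM, and 9 of 18 against 10.5% at 10 CPM or more. The controls also differ in depth and in the share of entries not uniquely aligned (21.4% in control_GPR64 and 30.1% in control_SMPD1). The part of these differences in the result was not tested, and culture and library cannot be told apart.

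Lower in control_GPR64 were CACNG4 at 9.16-fold lower (4.48 to 23.3), SCN9A at 5.46-fold lower (3.12 to 10.7), KCNS3 at 4.27-fold lower (2.96 to 6.43) and KCNJ14 at 5.14-fold lower (2.02 to 19.7). KCNV1 and KCNA3, with 0 counts in control_GPR64, were at least 3.34-fold lower (lower limit 2.64-fold) and at least 2.18-fold lower (lower limit 1.70-fold). CACNA1I was 3.22-fold lower (1.73 to 6.88), KCNAB2 3.13-fold lower (1.77 to 6.18) and CACNA1C 2.85-fold lower (1.29 to 8.03). The others were KCNG3, KCND1, KCNH3, CACNG8, KCNE4 and CACNB3, from 2.05-fold to 5.19-fold lower. CACNG8 had 6.20 CPM in siSMPD1 against 4.68 in control_SMPD1, and 3.92 in siGPR64 against 2.06 in control_GPR64 (117, 90, 10 and 6 counts). KCND1 had 9.54 CPM in siSMPD1 against 7.29 in control_SMPD1, and 3.53 in siGPR64 against 2.74 in control_GPR64 (180, 140, 9 and 8 counts), and CACNA1I had 8.74 CPM in siSMPD1 against 11.1 in control_SMPD1, and 4.31 in siGPR64 against 3.43 in control_GPR64 (165, 214, 11 and 10 counts). For these 3 genes both libraries of the GPR64 pair lay below both of the SMPD1 pair. Sodium, potassium and calcium channel genes are all among those lower.

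Among those higher in control_GPR64 were KCNT2 at 7.11-fold higher (3.50 to 16.0), KCNH2 at 6.13-fold higher (3.87 to 10.1) and SCN4A at 4.45-fold higher (2.26 to 9.05). The T-type pore gene CACNA1G was 3.51-fold higher (2.47 to 4.99), KCNG1 2.55-fold higher (2.14 to 3.03), CACNA1B 2.69-fold higher (1.05 to 6.63) and SCN8A 2.05-fold higher (1.32 to 3.13). CACNA1B had 0.848 CPM in siSMPD1 against 0.989 in control_SMPD1, and 0.392 in siGPR64 against 2.74 in control_GPR64 (16, 19, 1 and 8 counts), high in control_GPR64 alone. CACNA1B and KCNT2 met the level filter through control_GPR64 alone, with averages of 0.743 and 0.857 CPM in the other 3 libraries. CACNA1G had 8.80 CPM in siSMPD1 against 5.05 in control_SMPD1, and 16.1 in siGPR64 against 17.8 in control_GPR64 (166, 97, 41 and 52 counts), so both libraries of the GPR64 pair lay above the SMPD1 pair. The T-type pores therefore differed between the pairs in different ways, with CACNA1H level, CACNA1G higher and CACNA1I lower in control_GPR64.

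**Figure D5:**
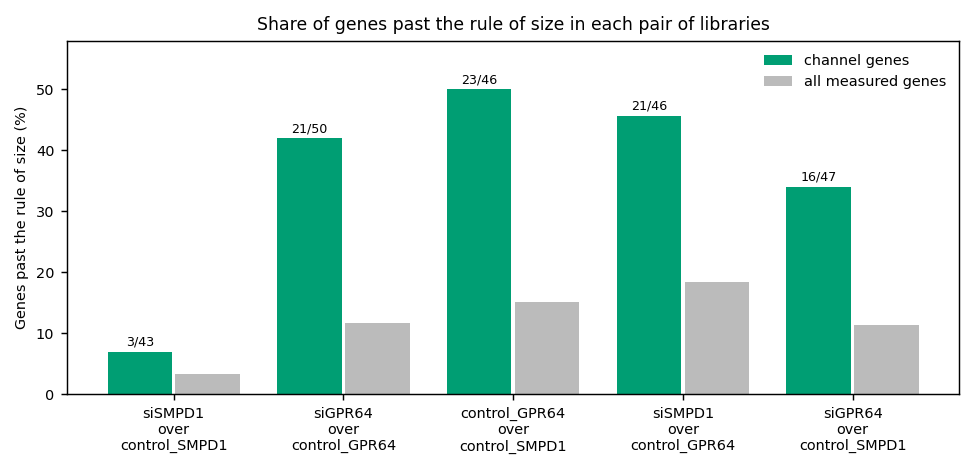
Share of genes past the rule of size, in percent, for channel genes (left bar, with members called over members measured) and all measured genes (right bar) in 5 pairs of libraries. The lowest share is 3 of 43 in siSMPD1 over control_SMPD1, and the other 4 pairs run from 16 of 47 to 23 of 46. Pairs that share a library are not independent.

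Across the 4 libraries, 42 of the 51 members had their highest library at least 2-fold above their lowest, against 35.4% of all 12887 genes that average 1 CPM or more. This count uses no counting interval and is not matched by level. Of the members, 33 averaged 1 to 10 CPM, while 9805 of the 12686 genes measured between the controls averaged 10 CPM or more. The part of counting error in it was not tested. The library control_GPR64 was the lowest library for 24 members (background 32.4%) and the highest for 13 (background 29.8%). The library siGPR64 was the highest for 18 (background 26%). Neuronal markers had their lowest sum in control_GPR64. The 11 listed markers, of which 8 were measured, summed to 886 CPM in siSMPD1 and 860 CPM in control_SMPD1, and to 842 CPM in siGPR64 and 543 CPM in control_GPR64. In siGPR64 over control_GPR64, 4 were higher and 1 lower (backgrounds 6.61% and 5.12%). NEFL, a neurofilament gene, was 3.53-fold higher (2.81 to 4.51) and SYP, a synaptic vesicle gene, 2.63-fold lower. Over control_SMPD1 instead, none of the 8 was higher in siGPR64 and 1 was lower. STMN2 and ELAVL4 had 0 counts in all 4 libraries. Epithelial markers summed to 169 CPM in siGPR64 and 85.3 CPM in control_GPR64, with KRT5 and KRT14 at 0 in all 4 libraries, and immune markers to 7.83 CPM in siGPR64 and 3.43 CPM in control_GPR64, with CD3E and LYZ among the genes at 0. In the SMPD1 pair the epithelial sums were 148 CPM in siSMPD1 and 180.5 CPM in control_SMPD1. Their part in the channel values was not tested.

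Genes that work with channels but lie outside the symbol rule were followed in 4 lists. Among partners such as ankyrins, FGF homologous factors and calmodulins, 21 of 30 were measured. None passed in siSMPD1, and in siGPR64 none was higher and 3 were lower (backgrounds 3.32% and 11.7%). FGF12, a cytoplasmic regulator of sodium channels, had 5.88 CPM in siGPR64 and 18.8 CPM in control_GPR64 and was 3.14-fold lower (1.79 to 6.11). FGF14, of the same family, was 2.28-fold lower (1.30 to 4.31), and STAC3, an adaptor of the skeletal muscle calcium channel, was 5.15-fold lower (1.41 to 55.5). FGF12 was 6.36-fold higher (3.09 to 14.1) against control_SMPD1, so its direction depended on the control. ANK3, the ankyrin that anchors sodium channels at the axon initial segment, was 4.58-fold lower (3.04 to 7.30) in control_GPR64 than in control_SMPD1.

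Of 27 genes of intracellular calcium handling, 20 were measured. In control_GPR64 over control_SMPD1, 4 were higher and 4 lower (backgrounds 6.81% and 8.39%). In siSMPD1 over its own control none was higher and 1 lower (backgrounds 2.27% and 1.06%). In siGPR64 over its own control, 5 were higher and 1 lower (backgrounds 6.61% and 5.12%). JPH1 and JPH2, junctophilins that tether the endoplasmic reticulum to the plasma membrane, were 2.38-fold higher (1.76 to 3.29) and 16.0-fold higher (3.86 to 993) in siGPR64, with 1 count of JPH2 in control_GPR64. ORAI2, a store-operated calcium channel, was 2.13-fold higher (1.74 to 2.63) against control_GPR64 and 2.28-fold higher (1.98 to 2.61) against control_SMPD1. RYR2, the calcium release channel of the heart, was 2.01-fold higher (1.24 to 3.39). SLC8A2, a sodium-calcium exchanger, was lower in both knockdowns than in their own controls, at 2.41-fold lower (1.34 to 4.70) in siSMPD1 and 2.53-fold lower (1.14 to 6.75) in siGPR64.

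Of 15 other voltage-sensing or leak channels, 14 had a row, 8 were measured and none passed in either knockdown (backgrounds 3.32% and 11.7%). Of 17 sodium-potassium pump and chloride cotransporter genes, 12 were measured. In siSMPD1, 2 of the 12 were higher (background 2.27%). FXYD6, a pump regulator, was 2.49-fold higher (2.06 to 3.03) and ATP1B2, a pump beta subunit, 2.46-fold higher (1.46 to 4.43). None of the 12 passed in siGPR64 (background 11.7%).

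As a check with a formal test, the controls were pooled as 2 replicates, although they differ as described and leave 1 residual degree of freedom. Each knockdown was 1 library in this fit. Almost no gene of any kind passed adjustment, so the lack of members past it is not particular to channel genes. KCNJ12 and SCN3A met the level filter of the edgeR fit through siGPR64 alone, so their results there are given as a description. The shares of all 12887 genes at an unadjusted p under 0.05 were 1.17% for siSMPD1 and 2.25% for siGPR64 by edgeR. No member had an adjusted p under 0.05 by the quasi-likelihood test of edgeR, against 1 for siSMPD1 and 5 (CACNG3, KCNH5, KCNJ12, KCNN1 and SCN3A) for siGPR64 at an unadjusted p under 0.05. DESeq2 gave 0 as well, with 1 (KCNG1) and 2 (CACNG3 and KCNJ12) unadjusted, among 175 and 212 genes in all.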

How the data were processed

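Reads were processed with bcl2fastq, TopHat2, SAMtools and HTSeq on build hg19, per the submitters' processing notes, with no versions. Annotation, strand setting and counting mode are not stated there. Each library came as a deposited table of whole read counts by gene symbol, which the authors had not normalized. The 5 HTSeq summary lines (36.5% to 44.8% of entries) were left out.

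Counts were scaled with TMM factors (edgeR 4.0.16, R 4.3.3). To each count a prior of 0.5, scaled to library size, was added for log2 ratios, and counts of 0 were set to 3 for bounds. Intervals are exact Clopper-Pearson intervals (scipy 1.17.1). Background shares for a pair cover genes averaging 1 CPM or more over the 4 libraries and also over the pair compared. Shares across the 4 libraries use the first of these filters only. Exon lengths are unions over GENCODE 29 basic transcripts, matched by symbol for all 51 members. Alternatives were DESeq2 1.42.0 size factors, unscaled totals, other filters, folds, priors and intervals, and the other control. Values are given for members past the rule in a comparison named above and for leading members of each role. Counts cover all 51 members, of which 4 are not reported here by name. Members, lists and comparisons were chosen with earlier results of these data known.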

Additional observations from a re-analysis of the deposited data

Results flagged for a closer look

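KCNG3, a silent Kv subunit, passed the rule of size in opposite directions in the 2 knockdowns. Its log2 ratio was -1.09 in siSMPD1 over its control and 2.98 in siGPR64 over its control, the second on 2 counts in control_GPR64. The difference between these ratios was not tested.

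KCNQ1OT1, the antisense RNA from the KCNQ1 locus, was left out of the members by the symbol rule. It had 16.8 CPM in siGPR64 and 6.85 CPM in control_GPR64, which is 2.42-fold higher (95% counting interval 1.42 to 4.41). It had 20.6 CPM in siSMPD1 and 18.7 CPM in control_SMPD1, so control_GPR64 was the low library.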

How the results depend on the processing

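No paired analysis was possible because each group has 1 library. DESeq2 size factors, unscaled totals and a prior of 2 counts left the direction of every call in the 3 comparisons as given. The main counts were 3 members for siSMPD1, 21 for siGPR64 and 23 between the controls (backgrounds 3.32%, 11.7% and 15.2%). Unscaled totals gave 21 of 46 between the controls, against 15.1% of all genes. A 99% interval gave 20 of 50 for siGPR64 against 9.86%, and 21 of 46 between the controls against 13.6%. Without a filter on low values siSMPD1 had 7 of 95 members, against 4.09% of all genes under the same filter. With a mean of at least 5 CPM the counts were 1, 12 and 14 of 26 members, against 1.9%, 10.8% and 12.7% of genes. A 1.5-fold rule gave 12 in siSMPD1, against 11.8%. Of 18 members with a mean of at least 10 CPM, 0, 10 and 9 passed, against 1.44%, 9.3% and 10.5%. At 1 to 10 CPM, 11 of 32 passed for siGPR64 against 20%, and 14 of 28 between the controls against 31.2%. Both of these counts include members that met the level filter through 1 library of the pair alone. With more than 10 counts in both libraries, 9 of 20 passed for siGPR64 against 9.4%, and 12 of 26 between the controls against 12.6%. These level and count ranges were chosen after seeing the data. With pooled controls, edgeR and DESeq2 had 1 library for each knockdown, and their results stand in the report with that limit.

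Against control_GPR64, siSMPD1 had 21 of 46 members past the rule (background 18.4%) and a median log2 ratio of 0.31, and KCNH2 (-1.50) reversed. KCNG3 (1.30) changed sign, but its counting interval there included 1. Against control_SMPD1, the siGPR64 log2 ratio was nearly level for CACNG4 (-2.07e-05), KCNH3 (-0.037) and KCNT2 (0.0048). It changed sign for KCNAB2 (-0.24) and KCNV1 (-0.32), and none of these genes passed the rule there. The cause was not tested. Depth limits the GPR64 pair, where 1 count is worth 0.392 CPM in siGPR64 and 0.343 CPM in control_GPR64.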
